A study of Mus musculus with 27 samples.

Results

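The ends of long noncoding RNA (lncRNA) genes were examined for CpG methylation in mouse hepatocytes, which make up most of the mass of the liver. A member was an end of an autosomal gene that the GRCm38.p6 gene table of RefSeq lists as lncRNA or antisense RNA. Its positions lay within 1000 bp of that end, more than 2000 bp from any end of a protein-coding gene, and were listed in all 27 samples. The table held 12416 such genes, with 24832 ends, and 4625 of these ends had at least 1 position, of 27914 autosomal gene ends of every biotype that did. The members held 53264 of the 1653370 autosomal positions listed in all samples. Levels are given for the 2234 ends, of 2016 genes, with at least 5 positions, and they are set against 15438 ends of 13180 protein-coding genes measured by the same minimum. Of the 2234 ends, 339 shared positions with another lncRNA end, so that they made 2061 separate sets of positions.

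The samples were hepatocyte DNA of female mice aged 12 weeks from 9 inbred strains, 3 biological replicates each. C57BL/6J, 129S1/SvImJ, DBA/2J and A/J are classical laboratory strains, NZO/HlLtJ is a model of obesity and NOD/ShiLtJ one of autoimmune diabetes. The wild-derived strains WSB/EiJ, PWK/PhJ and CAST/EiJ stand for the domesticus, musculus and castaneus subspecies of the house mouse. No treatment or engineered allele is named in the labels of any group. The study related genetic variation among the strains to epigenetic marks and gene expression. Reduced representation bisulfite sequencing (RRBS) reads DNA next to CCGG, where MspI cuts, so that it samples CpG-rich sequence. Each sample listed between 2904787 and 3156965 positions, each with a percent methylation and no read count, so the depth behind a value is unknown. The files hold no RNA, so the labelled cell type could not be set against marker genes, and none of the levels below says whether a gene was transcribed.

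LncRNAs are transcripts that carry no long open reading frame. Some coat or silence neighbouring genes, some build nuclear bodies, some carry small nucleolar RNAs or microRNAs in their introns, and for most no role is known. Methylation of cytosine in CpG is kept low at CpG-rich promoters of active genes and is high over most of the remaining genome. At imprinted control regions 1 parental copy is methylated and the other is not, so that a mixed DNA sample reads at an intermediate level.

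The promoters of 6 lncRNA genes are printed because they show the kinds of ends described below: 4 that differed among the strains, 1 at an imprinted gene and 1 at a host gene of small nucleolar RNAs. Each is the 300 bases from 250 before to 50 after the gene's start, 5′ to 3′ on the gene's strand, from the promoter table of RefSeq for GRCm38.p6, in the reference C57BL/6J sequence. Capitals mark the bases at which a methylation value was listed in all 27 samples.

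Gm1600, chr16:10331236-10331535 (minus strand): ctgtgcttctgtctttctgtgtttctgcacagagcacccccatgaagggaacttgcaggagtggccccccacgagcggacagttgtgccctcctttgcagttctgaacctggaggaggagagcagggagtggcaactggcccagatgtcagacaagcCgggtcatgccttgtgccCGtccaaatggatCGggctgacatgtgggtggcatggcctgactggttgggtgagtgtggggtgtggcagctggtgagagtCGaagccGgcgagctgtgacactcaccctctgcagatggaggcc

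Gm51701, chr9:123924898-123925197 (plus strand): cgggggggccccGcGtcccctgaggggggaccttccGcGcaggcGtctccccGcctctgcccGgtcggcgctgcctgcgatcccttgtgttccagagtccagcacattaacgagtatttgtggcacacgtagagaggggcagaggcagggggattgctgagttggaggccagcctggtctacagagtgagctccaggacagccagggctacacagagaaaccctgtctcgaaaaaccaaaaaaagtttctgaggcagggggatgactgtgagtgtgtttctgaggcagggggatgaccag

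Gm30940, chr2:73560936-73561235 (plus strand): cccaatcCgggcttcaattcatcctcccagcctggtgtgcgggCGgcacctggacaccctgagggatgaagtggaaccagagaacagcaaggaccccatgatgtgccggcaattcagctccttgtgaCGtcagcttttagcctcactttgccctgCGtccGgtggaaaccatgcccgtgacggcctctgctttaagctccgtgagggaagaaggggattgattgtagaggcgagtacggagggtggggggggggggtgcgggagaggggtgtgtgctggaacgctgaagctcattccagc

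Gm34333, chr5:146600084-146600383 (minus strand): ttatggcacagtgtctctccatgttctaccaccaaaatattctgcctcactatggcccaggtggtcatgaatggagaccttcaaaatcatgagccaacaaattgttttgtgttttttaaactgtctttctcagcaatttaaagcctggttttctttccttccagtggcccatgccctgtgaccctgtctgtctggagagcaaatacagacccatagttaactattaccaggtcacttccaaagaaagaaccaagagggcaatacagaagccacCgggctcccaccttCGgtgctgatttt

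Meg3, chr12:109540746-109541045 (plus strand): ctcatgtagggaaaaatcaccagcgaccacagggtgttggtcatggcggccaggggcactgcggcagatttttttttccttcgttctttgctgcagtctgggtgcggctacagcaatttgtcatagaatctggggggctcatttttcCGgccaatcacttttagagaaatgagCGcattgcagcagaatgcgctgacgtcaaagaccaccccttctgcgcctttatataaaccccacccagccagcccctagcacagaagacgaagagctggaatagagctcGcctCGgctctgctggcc

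Snhg12, chr4:132308428-132308727 (plus strand): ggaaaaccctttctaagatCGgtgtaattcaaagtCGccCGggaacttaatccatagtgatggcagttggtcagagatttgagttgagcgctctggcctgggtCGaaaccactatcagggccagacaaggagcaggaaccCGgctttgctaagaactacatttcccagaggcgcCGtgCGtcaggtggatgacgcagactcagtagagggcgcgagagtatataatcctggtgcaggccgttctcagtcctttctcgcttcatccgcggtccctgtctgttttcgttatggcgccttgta

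These windows hold from 3 listed bases, in Gm34333, to 14, in Snhg12. Over the capitals of the Snhg12 window the highest of the 27 samples was at 2.21%. Over those of Meg3 the samples ran from 25.9% to 65.3%, and over those of Gm1600 from 1.56% to 87.0%. Of the 127869 listed positions within promoter windows of lncRNA and protein-coding genes, 127865 fell on a base of a CpG.

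LncRNA gene ends, as the rule defines them, were much more methylated than ends of protein-coding genes in every sample. The mean over the 2234 lncRNA ends was 49.2% ± 0.856 (SD over 27 samples; n = 27), and the samples lay between 48.2% and 50.5%. The mean over the 15438 protein-coding ends was 16.2% ± 0.389 (SD, n = 27), between 15.6% and 16.9%. The 2 ranges do not come near each other. The lncRNA ends leave out 125433 positions within 2000 bp of a protein-coding end, which averaged 3.33%. In this comparison and in those below by side, distance, number of positions and CpG content, no matching exclusion was set on protein-coding ends. The lncRNA mean over ends without the exclusion was not computed. Counted by positions, the 53264 kept averaged 27.7%, and those at protein-coding ends 5.19%. The level near lncRNA ends, and with it the size of the difference, thus depends on the exclusion. The difference was 33.0 points, above 0 in 27 of 27 samples, with an exact two-sided sign-flip p over the 9 strain means of 0.00391, the smallest that 9 strains allow. This test asks whether the difference points the same way in each strain over a fixed set of ends. It was made for 12 differences of mean level in all, each with that same p, and Benjamini-Hochberg adjustment left it at 0.00391.

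The mean hides a split. Of the lncRNA ends, 849 (38.0%) were below 20%, 848 (38.0%) were above 80% and 537 (24%) lay between. Among protein-coding ends, 80.8% were below 20%, 11.4% above 80% and 7.77% between. The median lncRNA end stood at 54.5%, with quartiles at 4.75% and 89.2%. The median protein-coding end stood at 1.18%, with quartiles at 0.537% and 7.33%, and the difference taken by medians was 54.6 points.

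**Figure D1:**
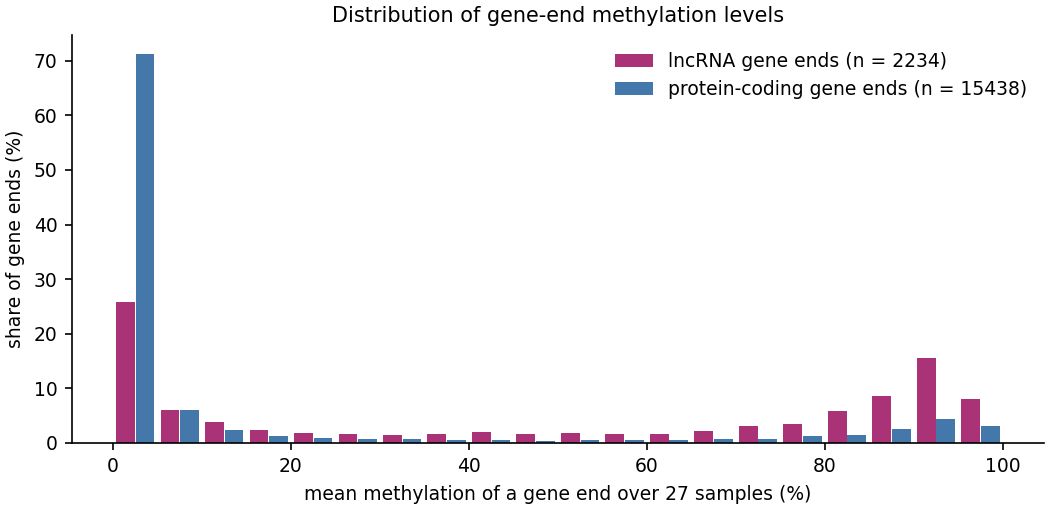
Share of gene ends (%) by mean methylation over 27 samples (%), in steps of 5 points, for 2234 lncRNA ends and 15438 protein-coding ends. LncRNA ends form a peak at each side, with 25.7% of ends below 5% and 15.6% between 90% and 95%, whereas 71.2% of protein-coding ends lie below 5%.

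Transcription starts and the ends at the other side of a gene were compared separately. The strand of a gene was known where its promoter is in the promoter table, for 9291 lncRNA genes. Among measured ends this gave 1124 starts, 607 ends at the other side of the gene and 503 of unknown side. LncRNA starts averaged 41.3% ± 0.847 (SD, n = 27) and protein-coding starts 6.90% ± 0.284, a difference of 34.4 points (exact sign-flip p = 0.00391). At the other ends the levels were 62.0% ± 0.851 and 55.4% ± 0.841, and the difference was 6.62 points (exact sign-flip p = 0.00391). Only lncRNA positions had to lie more than 2000 bp from protein-coding ends. Positions at a protein-coding end could lie near a neighbouring protein-coding gene, and the part of this in both differences was not tested. A level below 20% was found at 47.7% of lncRNA starts and 92.2% of protein-coding starts. At the other ends those shares were 22.7% and 33.7%.

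**Figure D2:**
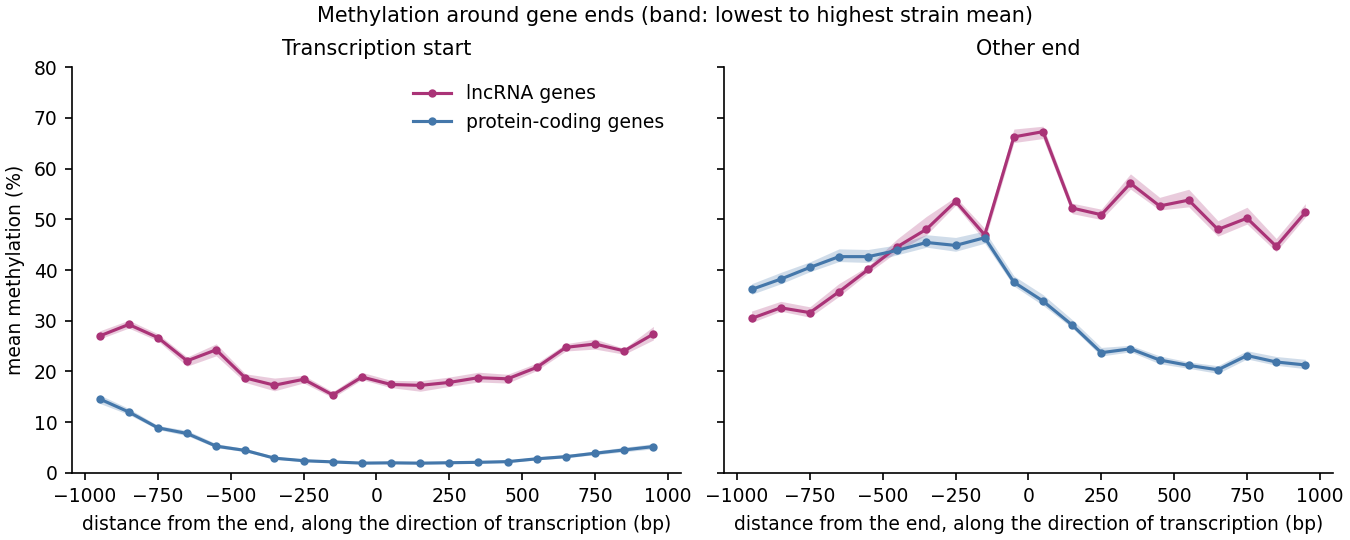
Mean methylation (%) in steps of 100 bp from 1000 bp before to 1000 bp after an end, along the direction of transcription, for transcription starts (left) and other ends (right); the band spans the lowest to the highest strain mean. LncRNA starts lie between 15.4% and 29.3% across the window, and protein-coding starts between 1.91% and 14.6%. From 100 bp before the other end onward lncRNA genes lie above protein-coding genes, at up to 67.3%. Only lncRNA genes leave out positions within 2000 bp of a protein-coding end, and no minimum gene length was set.

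With starts, other ends and ends of unknown side pooled, the level of positions was higher farther from the end. Positions within 100 bp of a lncRNA end averaged 24.1% (8126 positions), and those at 500 to 1000 bp averaged 31.7% (20434 positions). Near protein-coding ends the corresponding means were 2.69% and 9.47%. The pooled lncRNA values join opposite courses. In the plot by distance, starts stood at 18.9% and 17.4% in the 100 bp on either side. At 900 to 1000 bp they stood at 26.99% and 27.4%. Other ends went from 66.3% and 67.3% to 30.5% inside the gene and 51.4% past it. No minimum gene length was set in this plot, so in short genes the window inside the gene can reach the gene's own start. These averages count positions and not ends, so that CpG-dense ends weigh more, and the mean over all 53264 member positions was 27.7%. The rule's 2 thresholds fall on different slopes. Positions at 900 to 1000 bp from a lncRNA end averaged 33.0% and those just outside, at 1000 to 1100 bp, 32.0%. Positions kept by the rule at 2000 to 2500 bp from a protein-coding end averaged 15.5%, and those it left out at 1500 to 2000 bp averaged 9.28%. In all, 125433 positions near lncRNA ends were left out for lying within 2000 bp of a protein-coding end, with a mean of 3.33%.

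Both ends were compared for the 90 lncRNA genes of known strand, spanning more than 2000 bp, in which both were measured. Their starts averaged 36.9% ± 1.19 (SD, n = 27) and their other ends 55.7% ± 0.925, a difference of -18.7 points that was below 0 in 27 of 27 samples (exact sign-flip p = 0.00391). By medians the difference was -6.96 points. The start was the lower end in 57 of the 90 genes. In 11 genes the start was below 20% and the other end above 80%, in 0 genes the reverse held, and in 21 and 15 genes both ends were below 20% or above 80%. The same split of 1535 protein-coding genes, chosen in the same way, gave means of 7.76% and 58.4%. Of these genes, 703 combined a start below 20% with another end above 80%.

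The density of listed CpGs, which RRBS and the genome's CpG content set together, moved with the level. A lncRNA end had a median of 10 positions and a protein-coding end 47. LncRNA ends with 5 to 9 positions averaged 68.0% (1026 ends), those with 10 to 19 averaged 54.4%, those with 20 to 39 averaged 23.4%, and those with 40 or more averaged 5.31% (345 ends). Protein-coding ends fell over the same steps from 57.6% to 39.2%, 11.7% and 2.5%. Within these strata the lncRNA ends stayed higher, by 10.4, 15.2, 11.7 and 2.81 points, in 9 of 9 strains each (exact sign-flip p = 0.00391 for each). Matching on the number of positions thus left differences smaller than the 33.0 points of the unmatched comparison. Among ends with 40 or more positions, most ends of both kinds were close to unmethylated, with medians of 1.54% and 0.631%.

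Starts were also compared by the CpG content of their promoters. The CpG ratio compares the number of CpGs with the number that the C and G content of the window would give. Windows were used where the promoter's start coincided with the start of the gene's span, 1 per gene. This left 1092 of the 1124 measured lncRNA starts and 5516 of the 9936 measured protein-coding starts. Over the 9005 lncRNA windows the median ratio was 0.249. Of these windows 36.1% held the MspI site CCGG, a palindrome that reads the same on both strands. Over the 9841 protein-coding windows these values were 0.491 and 56.4%. Measured lncRNA starts had richer promoters than unmeasured ones, with CCGG in 68.7% of 1092 against 31.7% of 7913 windows, so the levels here describe the CpG-richer share of lncRNA genes. CpG-rich lncRNA promoters (ratio of 0.65 or more, 269 starts) had starts at a median of 1.54%, and 88.5% of these starts were below 20%. Intermediate ones (0.35 to 0.65, 399 starts) had a median of 41.6%, and CpG-poor ones (424 starts) 70.9%. At protein-coding starts the medians were 0.598%, 1.83% and 18.8%. The differences of the means were 8.47 points in the CpG-rich, 34.4 in the intermediate and 17.95 in the CpG-poor class, above 0 in 9 of 9 strains (exact sign-flip p = 0.00391 for each). The difference in the intermediate class was as large as that over all measured starts, which included starts without such a window. The Gm34333 window printed above is CpG-poor, with 2 CpGs and a ratio of 0.135. The Snhg12 window has 18 CpGs and a ratio of 0.859.

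LncRNA ends inside and outside protein-coding genes were compared next. The 859 lncRNA ends inside the span of a protein-coding gene averaged 48.2% and the 1375 outside averaged 49.8%. The difference of -1.60 points was below 0 in 27 of 27 samples (exact sign-flip p = 0.00391). By medians it was -4.07 points (exact sign-flip p = 0.00391). It was gone with at least 10 positions per end (-0.00234 points, exact sign-flip p = 0.984), and it turned to 2.37 points (exact sign-flip p = 0.00391) when positions had to lie more than 5 kb from protein-coding ends. No direction is therefore claimed for it. The gene table gives spans without exons, so exonic and intronic positions were not told apart.

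Levels were also grouped by the kind of gene, read from its symbol, without matching on side or number of positions. The 12 measured ends of small nucleolar RNA host genes (Snhg) averaged 4.31% and the 7 ends of microRNA host genes 4.21%. The 1654 ends of genes with a provisional Gm symbol averaged 53.0%, and the 390 ends of genes with a Rik symbol, named from cDNA clones, averaged 39.3%. The 55 ends of genes named for the opposite strand of another gene averaged 49.1%. The 43 ends of genes with a LOC symbol averaged 49.2%, and the remaining 73 ends averaged 27.5%.

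Known lncRNA genes were described by 5 lists. Of 28 listed abundant or housekeeping lncRNA genes in the table, 19 had a measured end, and 18 of their 20 ends lay below 10%, where 31.8% of all lncRNA ends and 77.1% of protein-coding ends lay. Malat1, an abundant nuclear RNA of speckles, stood at 0.508% at its start on chromosome 19 (28 positions), with samples from 0% to 1.11%. Neat1, the scaffold of paraspeckles, stood at 0.784% (13 positions), with samples up to 2.12%. No strain was set off at either gene. Norad, which binds Pumilio proteins, stood at 0.608%, the start of Dleu2 at 0.538% over 95 positions, and Pvt1, which lies next to Myc, at 1.60%. The end of Snhg12 averaged 15.04%, with samples from 13.0% to 16.3%, although the printed promoter window within it was near 0.

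Snhg11 was the highest of the measured host genes of small nucleolar RNAs. Its start on chromosome 2 (10 positions) had a median sample at 27.01%, the lowest at 8.89% and the highest at 42.2%. The WSB/EiJ samples, at 10.6%, 8.89% and 14.5%, were the lowest 3 of the 27. The F test over strains gave an adjusted p of 6.76e-04 (limma's moderated F, Benjamini-Hochberg over all ends tested), but the strain means spanned 23.6 points, under the 25 that a call required.

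Imprinted lncRNA genes sat in the middle of the scale. The table holds 9 listed genes, of which 7 had a measured end, and 7 of their 8 ends lay between 35% and 65%, where 10.4% of all lncRNA ends lay. H19, the maternally expressed lncRNA next to Igf2, stood at 46.0% and 41.6% at its 2 ends on chromosome 7 (9 and 11 positions), with samples from 31.0% to 64.4% and from 30.3% to 53.1%. The start of Kcnq1ot1, the paternally expressed RNA inside Kcnq1, stood at 38.97%, with samples from 21.9% to 59.95%. The start of Airn, antisense to Igf2r, stood at 39.3% (27.5% to 51.3%). Meg3, the maternally expressed lncRNA of the Dlk1-Dio3 cluster, stood at 45.4% over 28 positions at its start, with samples from 33.2% to 57.3%. Mirg, from the same cluster, stood at 38.9%, and Peg13, inside Trappc9, at 48.0% over 42 positions. At none of these ends did a strain lie apart from all the others, although some pairs did not overlap: at Mirg the WSB/EiJ samples were at 33.6%, 34.6% and 34.0% and the PWK/PhJ samples at 45.9%, 47.8% and 44.2%. None of the listed imprinted ends passed the F test: the adjusted p ran from 0.119 for Peg13 to 0.843 for Kcnq1ot1 (limma's moderated F). The eighth end, of Peg3os, was at 94.4% in the mean and at 85.7% or above in all samples.

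Ends of developmental lncRNA genes, most named for the opposite strand of a transcription factor gene, were low as well. The table holds 31 of them, and 12 had a measured end, and 10 of the 12 ends lay below 10%. Hotair, transcribed from the HoxC cluster, stood at 3.17% (32 positions), Hottip, from the end of the HoxA cluster, at 7.49%, and the start of Sox1ot, which overlaps Sox1, at 3.83% over 127 positions. The other 2 ends were those of Bvht, a lncRNA of cardiac commitment, at 17.2%, and Lhx1os, at 93.4% over 6 positions. At Sox1ot the F test gave an adjusted p of 0.00120, over strain means that spanned only 2.84 points.

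The table holds 12 genes of the microRNA host list, and 6 had a measured end, and 5 of these lay below 10%. Among these 5 was Mirt2, at 7.42%, whose symbol does not name it as a host gene. Mir22hg, the host of miR-22, stood at 0.627% over 56 positions. The start of Mir100hg, the host of a cluster of microRNAs that includes miR-100, was the highest at 13.9% (10 positions). Its CAST/EiJ samples were at 30.1%, 23.9% and 24.98%, all above the other 24 samples, the next of which was a PWK/PhJ sample at 22.4%. The adjusted p was 0.0170 (limma's moderated F) and the strain means spanned 17.5 points, again short of a call. None of the 4 listed liver lncRNA genes in the table had a measured end. Not all of the listed ends had a level that allowed a test. Those tested were 8 of 8 imprinted, 3 of 20 abundant or housekeeping, 10 of 12 developmental and 4 of 6 ends of the microRNA host list, Mirt2 among them. None of those tested was called, where 10.1% of all lncRNA ends tested were, a share that would give few calls among this number of ends.

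Strains differed in the mean level of lncRNA ends by little, but by more than their replicates did. The 3 CAST/EiJ samples averaged 50.5% ± 0.0343 (SD, n = 3), PWK/PhJ 50.4% ± 0.158 and A/J 50.02% ± 0.201. The 6 other strains lay between 48.3% ± 0.187 in C57BL/6J and 49.0% ± 0.0871 in NOD/ShiLtJ. All 9 samples of the first 3 strains were above all 18 samples of the others, and the order within each of these groups is partly within the spread of replicates. The F over strains was 108 with 8 and 18 degrees of freedom (permutation p = 1e-05, the smallest that 100000 resamples can give). Protein-coding ends also differed, from 15.8% ± 0.112 in C57BL/6J to 16.8% ± 0.0906 in PWK/PhJ (F = 55.8, permutation p = 1e-05).

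The gap between the kinds of ends varied by strain as well. It was 34.0 ± 0.0455 points in CAST/EiJ, 33.5 ± 0.0703 in PWK/PhJ and 33.3 ± 0.249 in A/J, and the other strains lay between 32.4 ± 0.0534 in DBA/2J and 32.8 ± 0.0951 in 129S1/SvImJ. The CAST/EiJ samples did not overlap those of any other strain. The F of the gap over strains was 64.7 (permutation p = 1e-05), and without CAST/EiJ and PWK/PhJ it was 15.1 (permutation p = 2.00e-05).

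**Figure D3:**
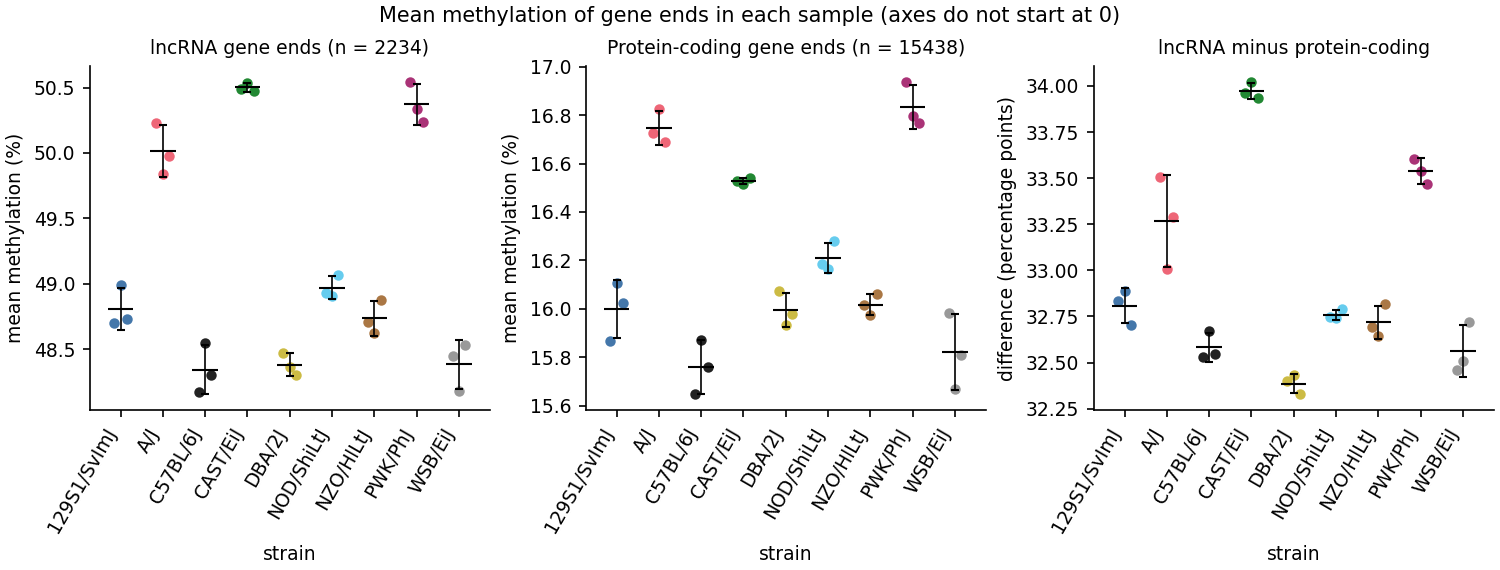
Mean methylation (%) in each sample over lncRNA ends (left) and protein-coding ends (middle), and their difference in percentage points (right); points are samples, the bar is the strain mean and the whisker its SD (n = 3). CAST/EiJ, PWK/PhJ and A/J lie highest in all 3 panels, with CAST/EiJ at 50.5% for lncRNA ends and 34.0 points for the difference; the axes do not start at 0.

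Single lncRNA ends differed among strains far more than the mean. An end was called where limma's moderated F over the 9 strains had an adjusted p below 0.05 and the strain means spanned at least 25 points; the fit ran over gene ends of every biotype with a mean between 2.5% and 97.5%. Of 1828 lncRNA ends tested 185 were called, which is 10.1%, and the background over all 9431 ends tested was 7.24%. For protein-coding ends it was 6.02%, or 357 of 5926. The 185 ends belonged to 176 genes and to 173 separate sets of positions. Without the span, 685 of the 1828 lncRNA ends had an adjusted p below 0.05, and 3665 of all 9431 ends tested did. By adjusted p alone the lncRNA share was thus not above the background. The other 406 measured lncRNA ends were not tested, 399 of them for a mean below 2.5% and 7 for one above 97.5%. Their strain means spanned at most 11.4 points. Over all measured ends, 8.28% of lncRNA and 2.31% of protein-coding ends were called.

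The share called varied with the level. Where the mean was between 20% and 40%, 60 of 145 lncRNA ends were called (41.4%) against 84 of 412 protein-coding ends (20.4%). Between 2.5% and 20%, 19 of 450 lncRNA ends (4.22%) and 62 of 2983 protein-coding ends (2.08%) were called. Between 40% and 60% the shares were 36.3% and 35.99%, and between 60% and 80% they were 17.2% and 19.1%. Above 80%, 0.951% and 0.688% were called. By side, 10.9% of 860 lncRNA starts tested, 7.68% of 547 other ends and 11.6% of 421 ends of unknown side were called, and over gene ends of every biotype the shares were 6.71%, 7.24% and 7.79%. Shares called were also taken by place, with lncRNA ends inside protein-coding genes at 8.10% of 654 and those outside at 11.2% of 1174. By chromosome the shares ran from 5.97% of 67 tested ends on chromosome 19 to 17.7% of 79 on chromosome 17. Shares by place and by chromosome were not taken over gene ends of every biotype, so they have no background here. At intermediate ends, between 20% and 80%, the median SD among the 3 samples of a strain was 5.08 points for lncRNA and 4.40 points for protein-coding ends.

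Single positions were also tested, with the same model and thresholds. Of 25940 member positions tested 1754 were called, or 6.76%. The background over 704299 positions of the whole genome was 4.97%, and over positions at protein-coding ends it was 5.08%. Since an end was called on its mean, its positions are described without a test: the median called end had 75% of its positions apart by 25 points or more between its highest and lowest strain. At 137 of them all positions moved the same way. At 19 called ends no single position passed its own test.

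The strands of a CpG were compared, since a variant in the sequence can alter the reading of 1 strand. At called ends 26 of 854 CpGs with both strands listed (3.04%) differed by 50 points or more between the strands in some strain. At the other ends 49 of 19656 did (0.249%). These shares were not matched for level. Ends were called most often at intermediate levels, and a gap of 50 points has little room at very low or very high levels. A gap between strands in 1 strain can also widen the span of strain means by which an end was called. No conclusion is therefore drawn from the contrast between called and other ends. Strain genomes were not used here, and the part of sequence variants in the calls was not tested.

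At called lncRNA ends CAST/EiJ and PWK/PhJ were most often the extreme strain. Among the 185 called ends CAST/EiJ was highest at 56, PWK/PhJ at 48 and A/J at 28, and the lowest strain was WSB/EiJ at 32, 129S1/SvImJ at 30 and CAST/EiJ at 27. CAST/EiJ or PWK/PhJ was the highest or the lowest at 138. Extreme strains were not counted over called ends of every biotype. Whether these counts are particular to lncRNA ends was therefore not tested. Without CAST/EiJ and PWK/PhJ 93 of 1809 lncRNA ends tested were called (5.14%). The background fell likewise, to 3.63% (336 of 9257 ends of every biotype) and to 3.14% over protein-coding ends.

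Comparisons of strain pairs gave a median of 22.5 called lncRNA ends over the 36 pairs. The fewest, 11, were between 129S1/SvImJ and C57BL/6J, where 0.615% of all 9431 ends tested were called; A/J with NOD/ShiLtJ and DBA/2J with NZO/HlLtJ also gave 11. The most, 66, were between CAST/EiJ and NOD/ShiLtJ, with 49 of them higher in CAST/EiJ, where 2.09% of all ends were called. The 21 pairs without CAST/EiJ and PWK/PhJ gave 11 to 29, the 14 pairs with 1 of these strains gave 44 to 66, and the pair of both gave 46. The same step was present over all 9431 ends, of which those pairs called 0.509% to 1.24%, 1.75% to 2.3% and 1.98%.

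At 9 called lncRNA ends all 3 samples of a strain lay 25 points or more above, or below, the other 24 samples (background 0.371% of all ends tested, 35 of 9431). CAST/EiJ was the higher strain at 5 of these, PWK/PhJ was higher at 2 and lower at 1, and A/J was higher at 1. Of these, 7 are among the 15 ends with the largest span of strain means, described next. The other 2 were starts on chromosomes 5 and 17. At Gm34844 CAST/EiJ was at 42.4% and the other strains at 4.81% or below (20 positions). At Gm30509 CAST/EiJ was at 59.5% and the next strain, PWK/PhJ, at 10.3% (6 positions).

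**Figure D4:**
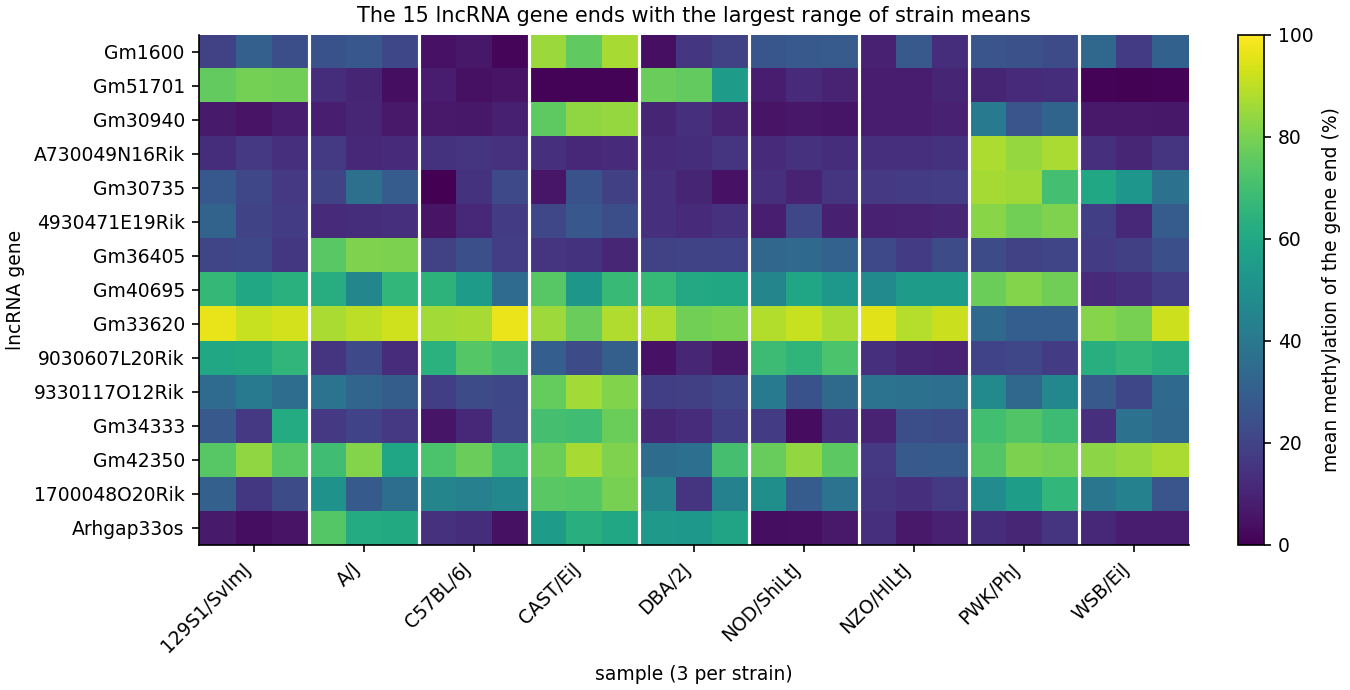
Mean methylation (%, colour) of the 15 called lncRNA ends with the largest span of strain means, 1 row per gene and 1 column per sample, 3 per strain. The rows of Gm1600, Gm30940 and 9330117O12Rik are bright in CAST/EiJ, those of A730049N16Rik and 4930471E19Rik in PWK/PhJ, and that of Gm36405 in A/J alone.

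The largest span was at the start of Gm1600 on chromosome 16 (minus strand, position 10331285), 17317 bp from the nearest end of a protein-coding gene, Emp2, which encodes an epithelial membrane protein. The CAST/EiJ samples were at 85.0%, 75.4% and 87.0% over its 8 positions, and the C57BL/6J samples at 5.00%, 6.51% and 1.56%. The 21 samples of the other strains ran from 4.23% to 33.5%, so that CAST/EiJ overlapped none, while the lowest DBA/2J sample fell among those of C57BL/6J. Strain means spanned 78.1 points (limma's moderated F, adjusted p = 1.10e-07), and all 8 positions differed by 25 points or more. All of them lie in the printed window.

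Gm51701 on chromosome 9 (start at 123925148) divided the strains otherwise. Its nearest protein-coding end belongs to Ccr1, a chemokine receptor gene, 36978 bp away. The 129S1/SvImJ samples were at 76.1%, 78.9% and 78.4% and the DBA/2J samples at 77.2%, 75.8% and 55.1%. The samples of the other 7 strains were all at 13.1% or below, and those of CAST/EiJ and WSB/EiJ at 1.14% or below. The 2 high strains do not overlap the rest. The span was 77.1 points (limma's moderated F, adjusted p = 8.79e-13), and 52 of the 54 positions shared the difference. In the printed window, which holds 7 of these positions, 129S1/SvImJ was at 56.0%, DBA/2J at 29.4% and the other strains at 1.19% or below.

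Gm30940 on chromosome 2 (start at 73561186) lies 2095 bp from an end of Chrna1, which encodes a subunit of the muscle acetylcholine receptor. CAST/EiJ samples were at 75.2%, 83.3% and 84.1%, PWK/PhJ samples at 41.2%, 26.2% and 32.4%, and the 21 samples of the other strains at 13.4% or below. The 3 levels are separate. The span was 75.1 points (limma's moderated F, adjusted p = 1.18e-13), and all 8 positions of the end are the capitals of the printed window.

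A730049N16Rik on chromosome 17, inside Akain1, differed in PWK/PhJ alone. The PWK/PhJ samples were at 87.6%, 84.1% and 87.4% over 26 positions, and the other 24 samples lay between 10.7% and 16.9%. The SD within strains was at most 2.90 points. The span was 73.9 points (limma's moderated F, adjusted p = 3.44e-15), and 24 of the 26 positions were apart by 25 points or more. At the 3 positions farthest from the gene end every strain was methylated, with the lowest strain mean at 60.3%.

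**Figure D5:**
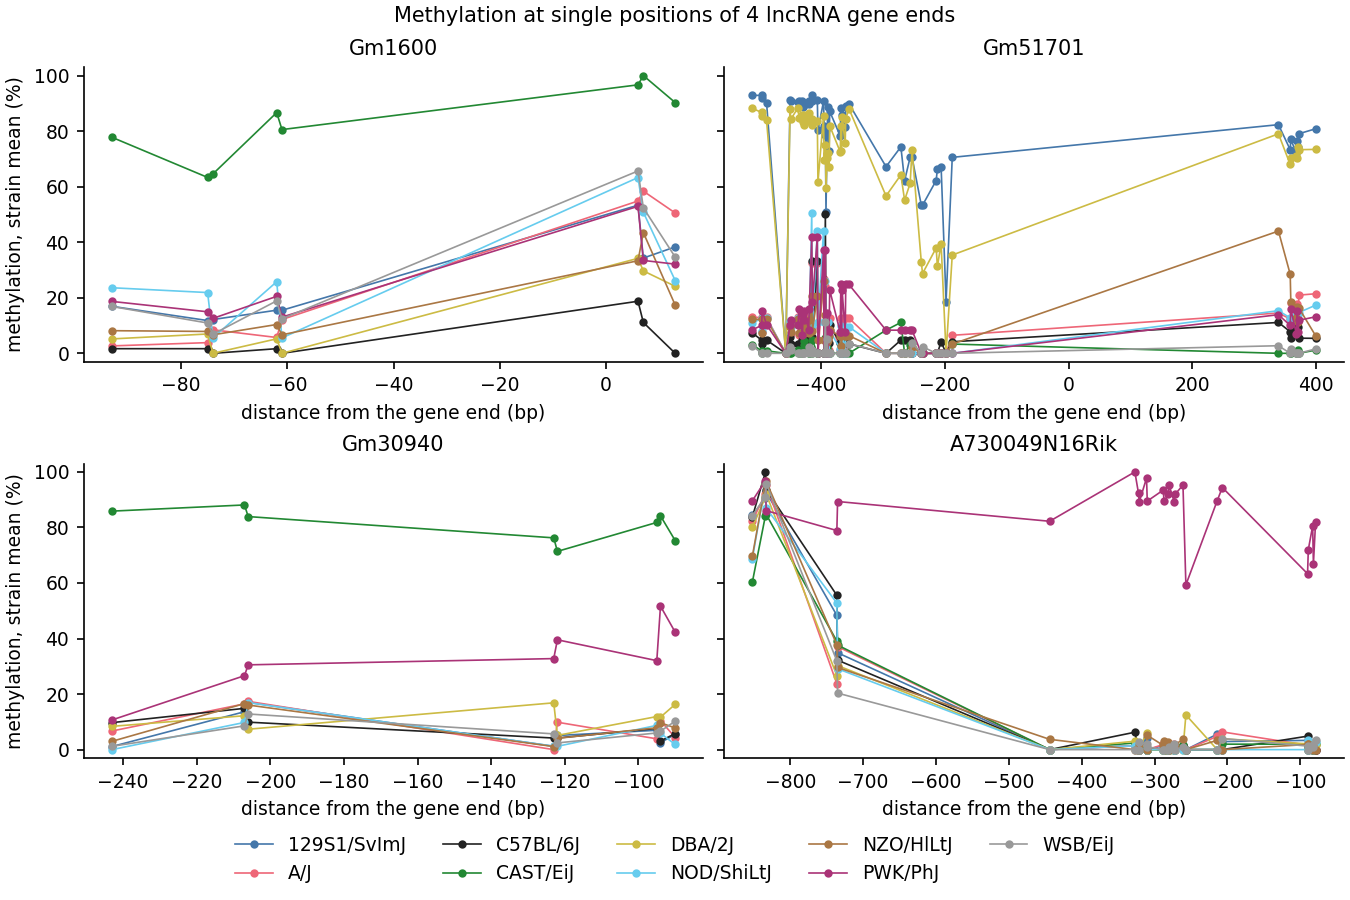
Strain mean methylation (%) at single positions against distance (bp) from the gene end, along the direction of transcription where the strand is known (negative before the end; for A730049N16Rik, of unknown strand, along the chromosome), at 4 lncRNA ends; lines join positions of a strain. CAST/EiJ is high throughout Gm1600 and Gm30940, 129S1/SvImJ and DBA/2J are high at Gm51701, and PWK/PhJ is high at A730049N16Rik.

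PWK/PhJ was also the high strain at 2 further starts. At Gm30735 on chromosome 3 its samples were at 86.3%, 85.8% and 70.3%, WSB/EiJ followed at 59.8%, 52.5% and 37.5%, and the other strains averaged from 9.58% to 28.9% (5 positions). One A/J sample, at 36.9%, came close to the lowest WSB/EiJ sample without passing it. At 4930471E19Rik on chromosome 10 the PWK/PhJ samples were at 82.2%, 78.7% and 80.6%, and the other 24 at 31.9% or below (10 positions).

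A low PWK/PhJ was found at the start of Gm33620 on chromosome 4, inside Mob3b. Its samples were at 34.3%, 29.8% and 29.9% over 5 positions, and the other 24 samples lay between 77.2% and 96.9%. The groups are far apart (limma's moderated F, adjusted p = 3.24e-07). WSB/EiJ was the low strain at Gm40695 on chromosome 10, at 12.2%, 13.9% and 18.1%, where the other samples lay between 35% and 81.4% (5 positions).

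CAST/EiJ was the strain with the highest mean at 3 more of the 15 ends. At 9330117O12Rik on chromosome 18 its samples were at 76.4%, 86.1% and 81.0%, and the other 24 at 47.9% or below (9 positions). At 1700048O20Rik on chromosome 9 its samples were at 74.3%, 73.6% and 79.4%, the NZO/HlLtJ samples were at 14.9%, 14.05% and 16.8%, and the rest ran from 15.6% to 66.1%, so that CAST/EiJ stood apart but NZO/HlLtJ did not. At the start of Gm34333 on chromosome 5 CAST/EiJ (70.4%, 69.4% and 77.5%) and PWK/PhJ (69.6%, 73.0% and 68.6%) were both high. The other strains averaged from 11.5% to 35.4% there, but one 129S1/SvImJ sample reached 61.7%, with its fellows at 27.8% and 16.7%. That end has 6 positions, and its printed window holds 3.

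The last 4 ends had other strain patterns. At Gm36405 on chromosome 5, the only one of the 15 known to be the other end of its gene, the A/J samples were at 74.5%, 80.9% and 80.2%, and the other 24 at 34.3% or below (13 positions). At the start of 9030607L20Rik on chromosome 2, inside Chmp4b, the strains fell into 2 groups. The samples of 129S1/SvImJ, C57BL/6J, NOD/ShiLtJ and WSB/EiJ lay between 60.1% and 73.6%, and those of the other 5 strains at 30.2% or below (8 positions; limma's moderated F, adjusted p = 6.86e-13). At the start of Arhgap33os on chromosome 7, named for the opposite strand of Arhgap33, the A/J, CAST/EiJ and DBA/2J samples lay between 53.5% and 73.6% and all others at 15.2% or below (7 positions; adjusted p = 1.49e-11). At the start of Gm42350 on chromosome 4 NZO/HlLtJ was low, at 16.6%, 27.9% and 28.2%. DBA/2J was mixed there, at 35.5%, 36.6% and 70.3%, and the other samples lay between 59.3% and 87.3% (8 positions).

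Of the 15 ends, 11 were known starts, as were 94 of the 185 called lncRNA ends and 860 of the 1828 tested. The strain means of all 185 called ends spanned a median of 36.8 points, and 30 spanned 50 points or more. Over all tested ends the median span was 8.47 points for lncRNA, 5.43 for protein-coding and 6.31 for ends of every biotype. One called end, of AY036118 on chromosome 17, belongs to a stretch of ribosomal RNA sequence that occurs in many copies in the genome. Its strain means ran from 7.70% in 129S1/SvImJ to 44.1% in A/J over 132 positions, and it is uncertain how reads were divided among copies.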

How the data were processed

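DNA methylation was measured by RRBS in 27 samples, 3 per strain, grouped by the strain in the labels. Per the submitters' processing notes, the authors used Trim Galore 0.6.3, Bowtie2 and Bismark 0.22 with GRCm38/mm10; other settings, including any minimum coverage, are not given in the sources used here. The deposited values are percent methylation per position, per the file headers, without read counts, so no counting interval is given. A coverage minimum would decide which positions are listed in all 27 samples. Listed positions, both strands of a CpG separately, were averaged with equal weight per gene end (at least 5 positions). Biotypes and spans came from RefSeq's GRCm38.p6 table, and strand from its promoter table.

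Strains were compared on log2((p + 5)/(100 - p + 5)), with p the percent, by limma's moderated F and Benjamini-Hochberg adjustment over all 9431 ends tested. The calculation was coded in Python 3.11.15 (numpy 2.4.6, scipy 1.17.1, pandas 2.3.3) and checked against limma 3.58.1 in R 4.3.3, where 0 ends fell on different sides of 0.05; it was also tested on simulated data. Mean levels were tested by sign flips of the 9 strain means and by permutation of samples. The labels call the 3 samples of a strain biological replicates. Named genes were those of 5 lists (imprinted, abundant or housekeeping, developmental, microRNA host and liver lncRNAs) with a measured end, and the 15 called genes with the largest span whose highest and lowest strains did not overlap, 1 end per gene. Promoters were eligible with at least 3 listed positions. The members and lists were chosen with earlier results of these data known. Alternatives varied position and distance minimums, strands, the log ratio, thresholds and the strains and replicates included.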

Additional observations from a re-analysis of the deposited data

Results flagged for a closer look

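The difference between lncRNA and protein-coding ends was not the same in all strains: the F of the difference over the 9 strains was 64.7 (permutation p = 1e-05, the smallest that 100000 resamples can give). Strain means of the difference ran from 32.4 points in DBA/2J to 34.0 points in CAST/EiJ, with SDs within strains of 0.0265 to 0.249 points (n = 3). It was above 0 in 27 of 27 samples.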

How the results depend on the processing

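Of 364 alternative values of the main results, 345 kept their direction, call and, for counts, size within 1.5 times. Leaving out 1 sample at a time gave 27 of the values of each main result. All the changes came from the other alternatives. With at least 3 positions per end 293 lncRNA ends were called (median of 41 per strain pair), and with at least 10, 79 (median of 9, with 4 ends set apart in a strain). With at least 10 positions the difference between ends inside and outside protein-coding genes was -0.00234 points (exact sign-flip p = 0.984), and more than 5 kb from protein-coding ends it was 2.37; the cause was not tested. Positions within 500 bp gave 119 ends and 1125 positions called. An offset of 1 point in the log ratio gave 1034 positions. A span of 10 points gave 503 ends, 43 set apart and a pair median of 95, and one of 40 points gave 75, 5 and 6. Without CAST/EiJ and PWK/PhJ, an alternative chosen after seeing the data, there were 93 ends, 651 positions and 2 set apart. Fewer ends or strains entered several of these fits. Shares of ends tested were taken only for the fit without CAST/EiJ and PWK/PhJ. Whether the share of lncRNA ends called lay above the background in the other settings was not tested.

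Leaving out each sample in turn gave 180 to 191 called ends, 1532 to 1780 positions, 9 to 11 ends set apart, pair medians of 21 to 23.5, a lncRNA minus protein-coding difference of 32.9 to 33.0 points, F values of 91.8 to 119 for lncRNA ends and 51.0 to 110 for the difference, inside minus outside differences of -1.62 to -1.59 and start minus other end differences of -18.8 to -18.7 points. For the 15 ends named for their span, an end gave no value in a setting in which it was not tested. Leaving out 1 sample at a time gave 27 values per end. Of 621 alternative spans in all, 614 kept their call. The other 7 came from leaving out CAST/EiJ and PWK/PhJ, where Gm1600 spanned 23.5 points, Gm34333 23.9, 9330117O12Rik 17.8, 4930471E19Rik 13.5, Gm33620 11.5, Gm30940 5.52 and A730049N16Rik 1.45.

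Same-numbered samples of different strains did not deviate together (mean r of 0.00481 over 76 pairs, at most 0.0547), so the numbers were not taken as pairing. With a replicate block 181 ends were called, each also called without it, with 1330 positions, 9 set apart, a pair median of 22 and F values of 80.5 and 42.1. The unknown depth limits the precision of every end, most at those with few positions, and 503 of the 2234 ends had no known side.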

Other observations

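LncRNA gene ends on the X chromosome lay outside the rule, and all samples were female. Of 34 measured ends of 30 genes, 20 (58.8%) were between 20% and 80%, where 24% of the autosomal lncRNA ends were. Firre, an X-linked lncRNA of nuclear organisation, stood at 20.8% over 15 positions, with samples from 12.3% to 30.2%. Ftx, a lncRNA of the X-inactivation centre, stood at 13.1%, with samples from 2.22% to 27.3% over 9 positions. Jpx, from the same region, differed between its 2 ends: its lower coordinate stood at 0.693% over 48 positions and its upper one at 84.7% over 16, and no sample at one end came near the other. These values were not tested.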
